A study of Mus musculus with 12 samples.

Results

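Axon guidance genes encode the ligands and receptors by which growing axons are attracted or repelled. The 68 genes described here are the protein-coding genes of the mouse whose symbols name a semaphorin, plexin, Eph receptor, ephrin or numbered netrin, with the neuropilins *Nrp1* and *Nrp2*, the Slit ligands *Slit1* to *Slit3*, the receptors *Robo1* to *Robo3*, and the netrin receptors *Unc5a* to *Unc5d* and *Dcc*. All 68 of 68 had more than 20 counts in total and so entered the tests, among 22592 such genes of the 55421 listed. The smallest totals were 96 counts for *Efna4* and 124 for *Epha1*, and no gene of the set fell below the filter. It held 9 EphA and 5 EphB receptors, 5 ephrin-A and 3 ephrin-B ligands, 7 secreted class 3 semaphorins, 13 membrane-bound semaphorins, 2 neuropilins, 9 plexins, 3 Slit ligands, 3 Robo receptors, 4 netrins and 5 netrin receptors.

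These families signal at cell contacts or through secreted ligands. Ephrins on one cell bind Eph receptors on another, and signals run into both cells. Class 3 semaphorins are secreted, and most of them bind neuropilins, which pass the signal on through plexins, whereas *Sema3e* can bind *Plxnd1* without one. Most membrane-bound semaphorins bind plexins directly. Slits bind Robo receptors and repel, and netrins attract through Dcc and repel through the Unc5 receptors. In the adult hippocampus these genes remain expressed and are known for roles at dendritic spines, at synapses and in the placement of newborn neurons.

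Poly(A) RNA-seq was made from the hippocampus of 12 mice on the C57BL/6 background, 3 in each of 4 groups. WT-Veh and WT-Nut3 were wild-type mice given vehicle or Nutlin-3, a small-molecule inhibitor of the p53 ligase MDM2, and KO-Veh and KO-Nut3 were *Fmr1* knockout mice given the same. Mice were injected intraperitoneally when 2 months old, and hippocampi of every group were collected when the mice were 6 months old. *Fmr1* encodes the RNA-binding protein that is lost in fragile X syndrome, and the knockout was in the whole body, so it was not confined to neurons. Libraries carry the animal's number (RH1 to RH16), and reads counted on genes ranged from 17150820 in WT-Veh RH2 to 20040482 in WT-Nut3 RH9. Levels are normalized read counts scaled to library size (CPM), and between genes only CPM per kilobase of exon (RPKM) is compared.

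*Fmr1* itself (chrX:68678541-68717963, GRCm38, plus strand) was examined first as a check of the labels. In CPM it was 79.5, 75.3 and 77.7 in WT-Veh RH2, RH5 and RH15, and 75.2, 74.0 and 78.3 in WT-Nut3 RH1, RH9 and RH14. In KO-Veh RH7, RH10 and RH16 it was 32.7, 32.5 and 37.3, and in KO-Nut3 RH6, RH8 and RH13 it was 30.6, 28.5 and 35.7. Every knockout library lay below every wild-type library, and reads on the gene remained in all 6 knockouts. The difference over both treatments was a log2 fold change of -1.22 (SE 0.055, edgeR adjusted *P* = 1.709e-08).

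The hippocampal label was checked against marker genes, and some libraries stood apart. Markers of CA pyramidal neurons, dentate granule neurons, astrocytes and oligodendrocytes were present in every library, with *Cpne7* (mean 337 CPM), *Rfx3* (136 CPM), *Slc1a2* (3135 CPM) and *Mbp* (2378 CPM) the most abundant of each list. The 18 markers of choroid plexus epithelium, the tissue that makes cerebrospinal fluid, summed to 6770 CPM in WT-Nut3 RH9, 5257 in KO-Nut3 RH6, 7241 in KO-Nut3 RH13 and 721 in KO-Nut3 RH8. In the other 8 libraries the same sum lay between 161 and 231 CPM. *Ttr*, the most abundant choroid plexus marker, reached 4215, 3091, 4520 and 314 CPM in those 4 libraries in the same order and at most 18.2 CPM in the other 8. These 4 libraries, all 3 of KO-Nut3 and 1 of WT-Nut3, thus stood apart from the other 8 in choroid plexus RNA. The 17 markers of fibroblasts of meninges and stroma summed highest in KO-Nut3 RH8 (406 CPM) and WT-Veh RH5 (303 CPM), against 88.0 to 224 CPM elsewhere, with *Dcn* the most abundant (mean 45.0 CPM). No marker of these lists was at 0 in all libraries.

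KO-Nut3 RH6 differed from the other 11 libraries in its neuronal markers too. The 10 CA pyramidal markers summed to 689 CPM there and to 1064 to 1255 CPM elsewhere. The 7 thalamus markers over the filter summed to 254 CPM there and to 82.1 to 111 CPM elsewhere. Of them, 4 were above all other libraries. *Slc17a6* stood at 113 CPM against 8.42 to 22.2 CPM, and the thalamic transcription factor *Tcf7l2* at 32.7 CPM against at most 7.33 CPM in any other library. *Prkcd*, the most abundant of the list on average, lay within the others (40.6 CPM against 16.5 to 43.2 CPM), as did *Plekhg1* and *Ramp3*. Of the other lists, it was the lowest library for dentate granule neurons (571 CPM against 602 to 834 CPM) and microglia (306 against 317 to 389 CPM), and the highest for oligodendrocytes (6364 against 3726 to 6138 CPM), interneurons (1025 against 867 to 976 CPM) and blood (85.3 against 42.3 to 69.1 CPM). The interneuron list was divided, with 4 of its 10 genes above and 5 below all other libraries, such as *Gad2* at 275 CPM against 147 to 181 CPM and *Sst* at 113 CPM against 171 to 211 CPM. In bulk tissue, fewer cells of a type and less RNA per cell cannot be told apart.

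The most abundant axon guidance genes were an ephrin, a Slit, an Eph receptor and a netrin receptor. Per kilobase, *Efnb3* stood at 57.2 RPKM ± 3.08 (SD, n = 12), *Slit1* at 57.0 ± 6.23, *Epha4* at 49.8 ± 4.87 and *Unc5a* at 49.8 ± 6.84. The first pair and the second pair each differed by less than their SD. The median of the 68 genes was 5.28 RPKM, 16 genes were above 10 RPKM and 5 were under 1 RPKM, down to 0.142 RPKM for *Epha1*. No gene of the set was at 0 in any library, and 2, *Efna4* and *Epha1*, had under 10 reads in at least 1 library.

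**Figure D1:**
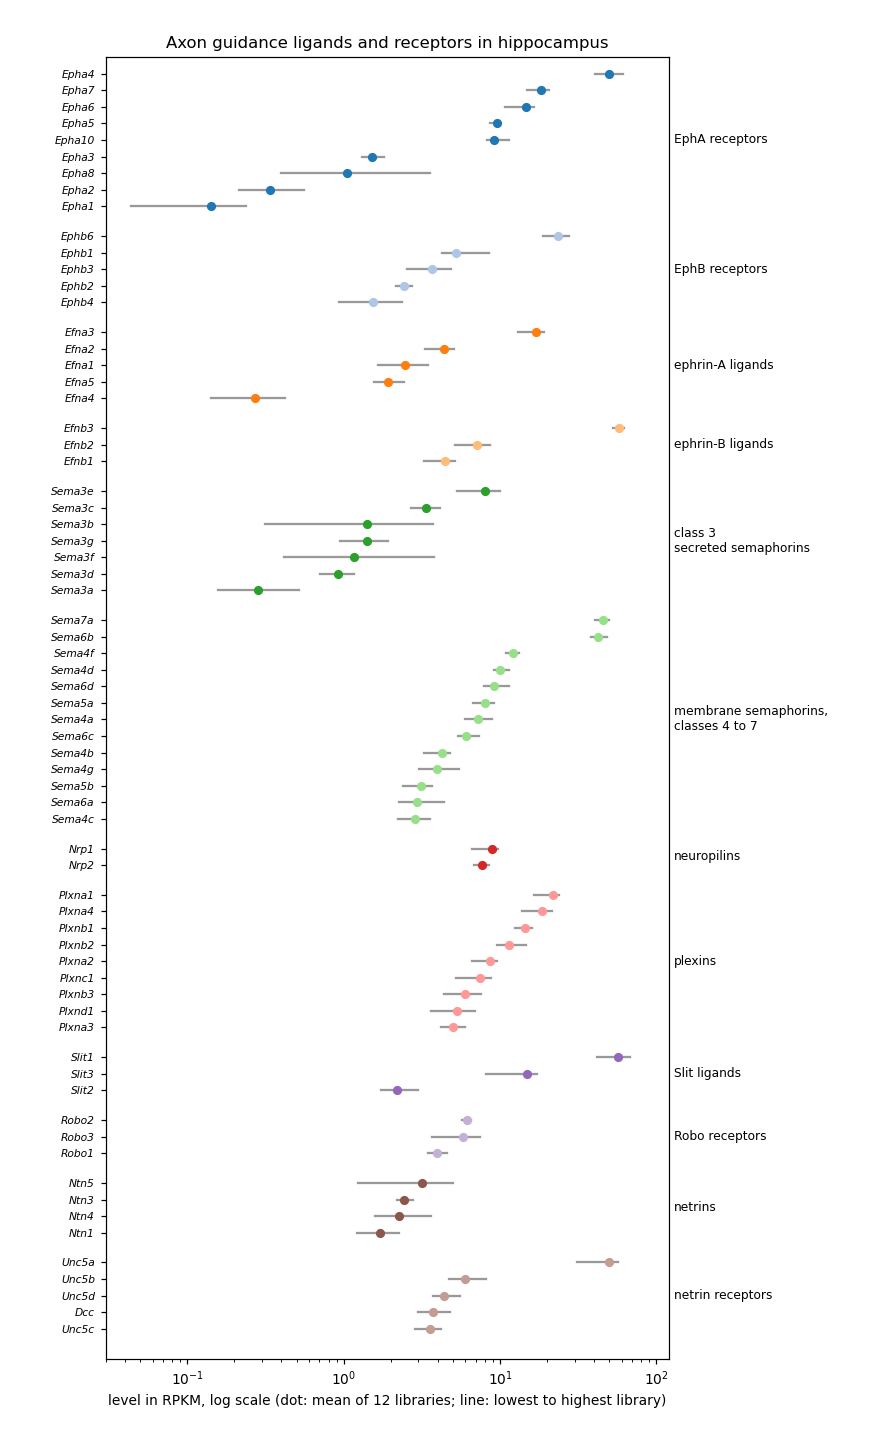
Level of each of the 68 axon guidance genes in RPKM on a log scale, grouped by role, with a dot for the mean of the 12 libraries and a line from the lowest to the highest library. The leading genes, *Efnb3* (57.2 RPKM), *Slit1* (57.0), *Epha4* (49.8) and *Unc5a* (49.8), lie to the right, and *Sema3b*, *Sema3f* and *Epha8* have the longest lines among genes over 1 RPKM.

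Within the Eph system, *Epha4*, a receptor that binds ephrins of both classes, led the EphA receptors, followed by *Epha7* (18.3 RPKM) and *Epha6* (14.7 RPKM), while *Epha2* (0.339 RPKM) and *Epha1* were the lowest. *Ephb6*, a receptor whose kinase domain is inactive, led the EphB receptors at 23.4 RPKM, and the other 4 lay between 1.54 RPKM (*Ephb4*) and 5.26 RPKM (*Ephb1*). Among the ligands, the membrane-spanning *Efnb3* exceeded *Efnb2* (7.11 RPKM) and *Efnb1* (4.46 RPKM), and *Efna3* (17.02 RPKM) led the ephrins that are held by a lipid anchor. Eph receptors and ephrins of high level were thus present on both sides of the pairing.

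Among semaphorins the membrane-bound forms were the more abundant. *Sema7a*, which is lipid-anchored, stood at 45.8 RPKM and *Sema6b*, a transmembrane form, at 42.2 RPKM, and the median of the 13 membrane-bound genes was 7.25 RPKM. The 7 secreted class 3 genes had a median of 1.41 RPKM, with *Sema3e* (7.95 RPKM) the highest and *Sema3a* (0.284 RPKM) the lowest. The neuropilins *Nrp1* and *Nrp2*, co-receptors of most class 3 semaphorins, stood at 8.94 and 7.69 RPKM. All 9 plexins were at 4.97 RPKM or more, with *Plxna1* (21.7 RPKM) and *Plxna4* (18.6 RPKM), which pair with neuropilins, in front.

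The ligand and receptor families for repulsion at the midline were unequal in level. *Slit1* was far above *Slit3* (14.8 RPKM) and *Slit2* (2.20 RPKM), whereas the 3 Robo receptors lay between 3.95 RPKM (*Robo1*) and 6.13 RPKM (*Robo2*). Of the netrin receptors, *Unc5a* exceeded the other 4, which lay between 3.57 RPKM (*Unc5c*) and 5.95 RPKM (*Unc5b*), with the attractive receptor *Dcc* at 3.71 RPKM. The 4 netrins were low, from 1.71 RPKM (*Ntn1*) to 3.19 RPKM (*Ntn5*).

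These orders hold for the length of all annotated exons together. With the longest transcript as length, *Epha4* (63.4 RPKM) came before *Slit1* (59.5) and *Efnb3* (57.2). *Nrp1* then stood at 24.0 RPKM and *Nrp2* at 13.6. *Unc5c* (7.09 RPKM) then passed *Unc5b* (6.35), *Epha5* (21.9) passed *Epha6* (19.8), *Robo1* (8.61) passed *Robo3* (7.94), and *Slit2* was at 5.61 RPKM. *Unc5a*, *Ephb6*, *Sema7a*, *Sema3e*, *Efna3*, *Plxna1* and *Ntn5* stayed first in their families.

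Most of the 68 genes varied little between mice. For 54 of them the highest library was under 2 times the lowest, and the median coefficient of variation was 12.3%. *Robo2* (4.76%), *Efnb3* (5.38%) and *Epha5* (5.40%) varied least. *Sema3b* (95.9%), *Sema3f* (81.7%) and *Epha8* (78.4%) varied most, and for the last of these a single library, KO-Nut3 RH6 with 16.9 CPM, stood above a range of 1.87 to 5.10 CPM in the other 11.

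KO-Nut3 RH6 was the lowest of the 12 libraries for 23 axon guidance genes and the highest for 14. That is 33.8% and 20.6% of the 68, where the same library was lowest for 16.1% and highest for 15.3% of all genes tested with a single extreme library. *Slit3* was 49.3 CPM in this library and 83.3 to 104 CPM in the others. *Unc5a* was 129 CPM against 195 to 235 CPM. *Ntn5* was 2.72 CPM against 4.73 to 11.1 CPM. All 3 Slit ligands, both neuropilins and 4 of the 9 plexins were below every other library there, while 5 of the 13 membrane-bound semaphorins were above. *Ephb1* was 59.3 CPM in this library and 29.9 to 45.6 CPM in the others. *Sema6a* was 38.3 CPM against 19.7 to 30.3 CPM. The marker sums given above for this library lay outside the other 11 too, and their part in these values was not tested.

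**Figure D2:**
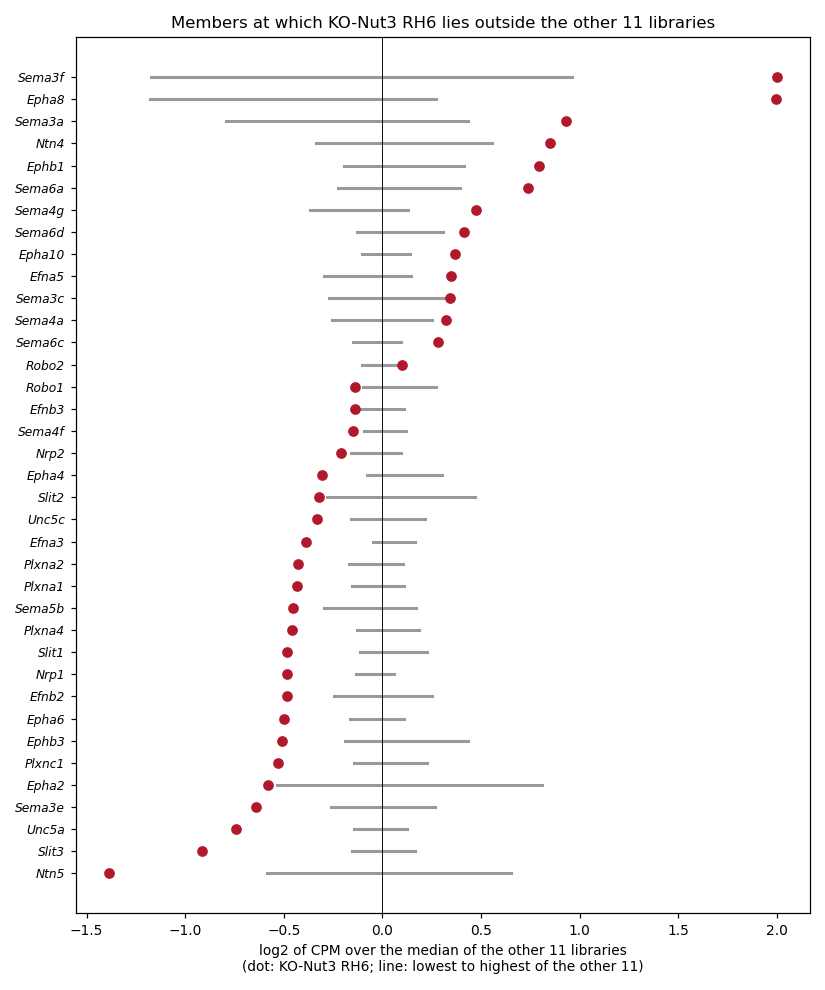
The 37 axon guidance genes at which KO-Nut3 RH6 lies outside the other 11 libraries, as the log2 of CPM over the median of those 11 (dot: KO-Nut3 RH6, line: lowest to highest of the others). Of the 23 genes below all others *Ntn5* and *Slit3* lie farthest from the median, and of the 14 above *Sema3f* and *Epha8* do.

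The effect of Nutlin-3 in *Fmr1* knockout mice was asked by KO-Nut3 against KO-Veh. *Sema3b*, a secreted semaphorin that signals through neuropilins, rose 6.13-fold and was the single axon guidance gene past an adjusted *P* of 0.05. The neighbouring *Sema3f* and the plexin *Plxnb2* were next, with adjusted *P*-values by edgeR above the threshold. No Slit, netrin, ephrin, Eph receptor or Robo receptor passed it.

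*Sema3b* (chr9:107597674-107609229, GRCm38, minus strand) was 17.1, 8.42 and 17.9 CPM in KO-Nut3 RH6, RH8 and RH13, and 2.89, 2.20 and 1.94 CPM in KO-Veh RH7, RH10 and RH16. In the wild-type mice it was 1.49, 5.88 and 2.32 CPM in WT-Veh RH2, RH5 and RH15, and 2.94, 15.9 and 2.02 CPM in WT-Nut3 RH1, RH9 and RH14. The knockout groups did not overlap, and of the wild-type libraries 1 treated mouse, RH9, reached the level of the treated knockouts. The group means were 14.5 CPM ± 5.25 and 2.34 ± 0.493 (SD, n = 3), with a log2 fold change of 2.62 (SE 0.294, edgeR adjusted *P* = 0.0117). With KO-Nut3 RH6 left out the log2 fold change was 2.48 (edgeR adjusted *P* = 0.00455). The call was lost without any one of the KO-Veh libraries (edgeR adjusted *P* from 0.101 to 0.152) and with all 12 libraries in one fit (0.298), where the log2 fold change was 2.50 to 2.80 and 2.62. By DESeq2 the adjusted *P* was 1.276e-16.

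*Sema3f*, another neuropilin ligand, lies 72.3 kb from *Sema3b* on the same strand (chr9:107681500-107710475). It was 19.5, 5.38 and 9.50 CPM in KO-Nut3 RH6, RH8 and RH13, and 3.05, 2.31 and 2.16 CPM in KO-Veh RH7, RH10 and RH16. In WT-Veh RH2, RH5 and RH15 it was 2.51, 4.88 and 5.10 CPM, and in WT-Nut3 RH1, RH9 and RH14 it was 6.29, 9.19 and 2.64 CPM. The treated knockouts lay above the vehicle knockouts without overlap, but RH8 lay inside the wild-type range. The log2 fold change was 2.18 (SE 0.415, edgeR adjusted *P* = 0.0934), and without RH6 it was 1.56 (edgeR adjusted *P* = 0.0334), while DESeq2 on all 6 libraries gave an adjusted *P* of 7.505e-07.

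*Plxnb2*, a receptor for class 4 semaphorins, was 113, 89.0 and 113 CPM in KO-Nut3 RH6, RH8 and RH13, and 78.9, 77.0 and 80.3 CPM in KO-Veh RH7, RH10 and RH16. In WT-Veh RH2, RH5 and RH15 it was 73.4, 85.5 and 81.7 CPM, and in WT-Nut3 RH1, RH9 and RH14 it was 79.3, 105 and 77.1 CPM. The 4 highest libraries were the 3 treated knockouts and WT-Nut3 RH9. The log2 fold change was 0.41 (SE 0.089, edgeR adjusted *P* = 0.148, DESeq2 adjusted *P* = 0.0119), and without RH6 it was 0.36 (edgeR adjusted *P* = 0.139).

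These 3 genes were high in the libraries that were high in choroid plexus markers. *Sema3b* and *Plxnb2* were above all other 8 libraries in each of WT-Nut3 RH9, KO-Nut3 RH6, RH8 and RH13, and *Sema3f* in 3 of those 4. Within the wild-type treated mice, RH9 alone had both the high marker sum (6770 CPM against 212 and 231 CPM in RH1 and RH14) and the high *Sema3b* (15.9 CPM against 2.94 and 2.02 CPM). In KO-Nut3 against KO-Veh, 18 of 18 choroid plexus markers were higher, 6 of them past the threshold, with a median log2 fold change of 4.59. Of 17 fibroblast markers 16 were higher, 2 past the threshold, with a median of 1.37. The part of either tissue in the semaphorin values was not tested.

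**Figure D3:**
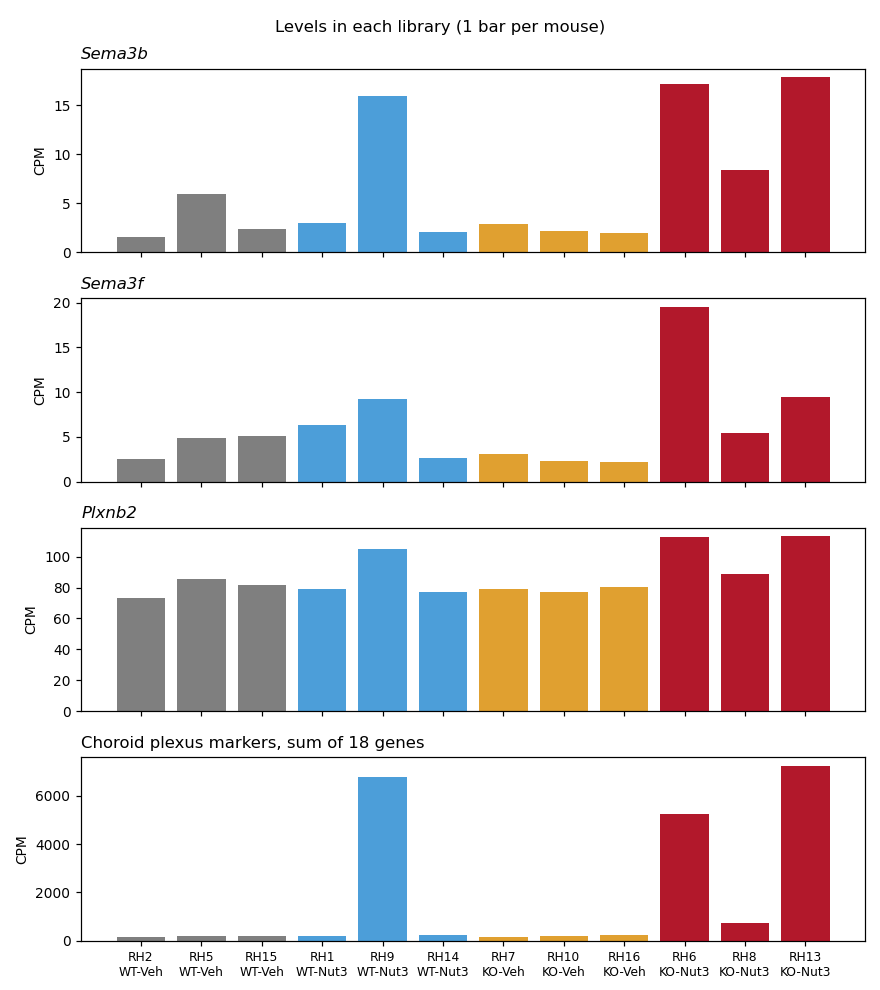
CPM of *Sema3b*, *Sema3f* and *Plxnb2* and the summed CPM of 18 choroid plexus markers in each of the 12 libraries, 1 bar per mouse, coloured by group. WT-Nut3 RH9, KO-Nut3 RH6 and KO-Nut3 RH13, the 3 tallest bars of the marker sum (5257 to 7241 CPM), are also the 3 tallest for *Sema3b* (15.9 to 17.9 CPM).

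The 250 bases before the annotated start of *Plxnb2* are shown because this receptor was high in the same libraries as *Sema3b*, with each match to the GC box GGGCGG, a binding motif of Sp factors, in capitals on either strand (RefSeq, GRCm38.p6, chr15:89180789-89181038, minus strand).
Plxnb2: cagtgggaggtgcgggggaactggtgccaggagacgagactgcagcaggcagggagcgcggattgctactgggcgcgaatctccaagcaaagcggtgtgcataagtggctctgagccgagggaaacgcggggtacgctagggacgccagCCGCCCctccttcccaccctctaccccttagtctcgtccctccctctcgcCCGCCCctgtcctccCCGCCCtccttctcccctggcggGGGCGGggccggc
This stretch held 4 matches, 20 CG pairs and 69.2% G and C. It held no TATAAA on either strand and no match to the p53 half-site, where p53 is the factor that MDM2 degrades. Among all 32851 windows of 250 bases in the table, 32.7% held GGGCGG, 12.4% TATAAA and 7.13% the p53 half-site. The 58 axon guidance genes with entries have 74 windows, of which 71.6% held GGGCGG, 2.7% TATAAA and 6.76% the p53 half-site. A match describes the letters and is not a measured site.

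Across the set, KO-Nut3 against KO-Veh gave 1 call among 68 genes where 0.199% of all genes tested were called in either direction. At an unadjusted *P* under 0.05, 4 genes (5.88%) were higher and 2 (2.94%) lower, against 5.75% and 1.85% of all genes. Groups did not overlap for 4 genes higher and 4 lower, each 5.88% of the set, against 7.85% and 5.44% of all genes. The shares in the set were near those of all genes. The vascular receptor *Ephb4* (log2 fold change 0.64, SE 0.194, edgeR adjusted *P* = 0.383) and the netrin receptor *Unc5d* (-0.27, SE 0.091, edgeR adjusted *P* = 0.453) completed the first 5. *Ephb4* was highest in KO-Nut3 RH8 and WT-Veh RH5 (10.9 and 10.3 CPM), the libraries with the highest fibroblast marker sums and also the highest mural cell marker sums (316 and 292 CPM). Of 10 endothelial markers 8 were higher in this comparison, 6 of them at an unadjusted *P* under 0.05 (median log2 fold change 0.24), and of 10 mural cell markers 9 were higher, 2 at that *P* (median 0.38). The part of these cell types in the value of *Ephb4* was not tested. The median log2 fold change of the set was -0.018 and that of all genes 0.003.

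In wild-type mice, WT-Nut3 against WT-Veh showed no axon guidance gene past the threshold by edgeR or DESeq2, where 0.0% of all genes were called by edgeR. At an unadjusted *P* under 0.05, 1 gene was higher and 3 were lower, 1.47% and 4.41% of the set against 1.84% and 1.34% of all genes. The first 5 were the class 4 semaphorin *Sema4a* (log2 fold change -0.21, SE 0.076), *Unc5d* (-0.21, SE 0.083), the oligodendrocyte plexin *Plxnb3* (0.37, SE 0.146), the semaphorin 7A receptor *Plxnc1* (-0.18, SE 0.073) and *Unc5a* (-0.12, SE 0.053), each with an edgeR adjusted *P* of 0.998. *Sema3b* here had a log2 fold change of 1.10 (SE 0.691, edgeR adjusted *P* = 0.998), with RH9 the high treated library. Of 18 choroid plexus markers 17 were higher here, all 17 at an unadjusted *P* under 0.05 (median log2 fold change 4.57), and over both genotypes 18 were higher, 17 at that *P* (median 4.56). Of 17 fibroblast markers 15 were lower here, 4 at that *P* (median -0.62), and over both genotypes 16 were higher, 2 at that *P* (median 0.33). The part of either tissue was not tested. *Plxnb3* was lowest in WT-Veh RH2, the library with the lowest sum of oligodendrocyte markers (3726 CPM against 4399 to 6364 CPM elsewhere). In WT-Nut3 against WT-Veh 10 of 10 oligodendrocyte markers were higher, 5 at an unadjusted *P* under 0.05 (median log2 fold change 0.28), and their part in the value of *Plxnb3* was not tested.

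The difference between the effects of Nutlin-3 in the 2 genotypes was tested by the interaction over all 12 libraries. No axon guidance gene passed by edgeR or DESeq2, and 0.0% of all genes did by edgeR. At an unadjusted *P* under 0.05 the interaction was positive for 3 genes and negative for 1, 4.41% and 1.47% of the set against 2.9% and 1.27% of all genes. They were *Ephb4* (log2 difference 0.95, SE 0.340), *Sema3f* (1.65, SE 0.655), *Sema4a* (0.36, SE 0.161) and *Efnb1* (-0.46, SE 0.206), followed by *Plxnb2* (0.29, SE 0.160), each with an edgeR adjusted *P* of 0.994. A positive value means a log2 fold change with Nutlin-3 that was higher in knockouts than in wild types, such as 0.15 against -0.21 for *Sema4a*. For *Efnb1* the values were -0.26 in knockouts and 0.20 in wild types. In the same test 16 of 17 fibroblast markers had a positive value, all 16 at an unadjusted *P* under 0.05 (median 2.10), and 15 of 18 choroid plexus markers did, 1 at that *P* (median 0.71). Their part in the values of *Ephb4*, *Sema3f* and the others was not tested. For *Sema3b* the interaction was 1.52 (SE 0.912, edgeR adjusted *P* = 0.994), so the increase in knockouts was not shown to differ from the change in wild-type mice.

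Pooling both genotypes, Nutlin-3 against vehicle called no axon guidance gene by edgeR or DESeq2 and 0.0% of all genes by edgeR. At an unadjusted *P* under 0.05 there were 4 higher and 4 lower, 5.88% of the set each, against 5.02% and 2.28% of all genes. *Unc5d*, a netrin receptor that mediates repulsion, came first with 37.2 CPM ± 1.71 in treated and 43.9 ± 4.48 in vehicle mice (SD, n = 6, log2 fold change -0.24, SE 0.062, edgeR adjusted *P* = 0.286). *Sema3b* (1.86, SE 0.492, edgeR adjusted *P* = 0.306), *Sema3f* (1.35, SE 0.389, 0.325), *Plxnb2* (0.27, SE 0.086, 0.408) and *Plxnc1* (-0.19, SE 0.074, 0.595) followed. When KO-Nut3 RH6 and WT-Nut3 RH9 were both left out, an alternative chosen after seeing the data, *Sema3b* had a log2 fold change of 1.23 (edgeR adjusted *P* = 0.941) and *Unc5d* one of -0.25 (0.795).

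The effect of the knockout was asked in vehicle mice (KO-Veh against WT-Veh), in treated mice (KO-Nut3 against WT-Nut3), which share no library with the former, and over both treatments. No axon guidance gene with more than 20 counts as filter passed the threshold in any of the 3 by edgeR. By DESeq2 none passed either, but over both treatments it gave no adjusted *P* for 20 of the 68, *Ntn5* and *Efna1* among them. With all genes of at least 1 count, *Ntn5*, *Slit2* and *Ephb6* passed in vehicle mice (edgeR adjusted *P* = 0.00802, 1.676e-05 and 0.0455). They also passed over both treatments (edgeR adjusted *P* = 2.178e-05, 0.00119 and 0.0282). Of the 35930 genes with at least 1 count, 272 passed in vehicle mice and 239 over both treatments. With the filter of more than 20 counts it was 4 and 1 of 22592. At more than 20 counts the netrin *Ntn5* came first in each of the 3 comparisons, with lower values in knockouts. *Efna1*, an ephrin-A ligand, was also lower in every knockout library than in every wild-type library. Over both treatments 46 of the 68 genes (67.6%) had a negative log2 fold change, against 48.1% of all genes, with a median of -0.065 against 0.006. The wild-type library WT-Veh RH2 was the highest of the 12 for 17 axon guidance genes (25% of the 68, against 11.4% of all genes) and the lowest for 5. Without it, *Ntn5* had a log2 fold change of -0.85 (edgeR adjusted *P* = 0.348), *Slit2* one of -0.24 (0.718) and *Robo1* one of -0.14 (0.745) over both treatments.

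*Ntn5* (chr7:45684022-45694556, GRCm38, plus strand) encodes a small netrin of the adult brain. It was 9.02, 11.1 and 8.40 CPM in WT-Veh RH2, RH5 and RH15, and 9.59, 7.10 and 8.80 CPM in WT-Nut3 RH1, RH9 and RH14. In KO-Veh RH7, RH10 and RH16 it was 6.76, 6.14 and 4.73 CPM, and in KO-Nut3 RH6, RH8 and RH13 it was 2.72, 4.98 and 5.38 CPM. The genotypes did not overlap, although the lowest wild-type and the highest knockout library were close. The means were 5.12 CPM ± 1.40 in knockouts and 9.01 ± 1.34 in wild types (SD, n = 6), with a log2 fold change of -0.82 (SE 0.159, edgeR adjusted *P* = 0.181). It was -0.69 (SE 0.168, edgeR adjusted *P* = 0.53) in vehicle mice and -0.97 (SE 0.250, edgeR adjusted *P* = 0.928) in treated mice, and -0.70 over both without KO-Nut3 RH6 (edgeR adjusted *P* = 0.0988).

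*Ntn5* shares 519 bases of exon, 23.4% of its exon length, with *Sec1* on the opposite strand, a gene of the fucosyltransferase family. The counts used here ignore strand. The counter sets reads on exons of more than 1 gene aside as ambiguous, 4.95% to 5.32% of the reads of each library, and these were left out, so reads within the shared bases are in neither gene's count. *Sec1*, named after its values were seen, was 2.55 to 3.95 CPM in the 6 knockout libraries and 5.04 to 7.05 CPM in the 6 wild-type libraries. Its log2 fold change was -0.74 (SE 0.132, edgeR adjusted *P* = 0.122), so both genes of the pair were lower in knockouts without passing the threshold.

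The 250 bases before the start of *Ntn5* are shown because this gene led each genotype comparison and its upstream bases differ in composition from those of *Plxnb2* (RefSeq, GRCm38.p6, chr7:45683772-45684021, plus strand). The same motifs were searched and none matched, so no letter is in capitals.
Ntn5: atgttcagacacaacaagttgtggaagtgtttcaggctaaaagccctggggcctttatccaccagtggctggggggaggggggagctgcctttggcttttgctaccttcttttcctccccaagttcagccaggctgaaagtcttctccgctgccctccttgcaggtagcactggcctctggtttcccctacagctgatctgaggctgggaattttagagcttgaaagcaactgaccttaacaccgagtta
It held 2 CG pairs and 52.8% G and C.

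*Efna1* (chr3:89271733-89281142, GRCm38, minus strand) lies beside *Efna3* and *Efna4* in a cluster of ephrin-A genes, 32.8 kb from *Efna3*. It was 5.08, 6.36 and 5.05 CPM in WT-Veh RH2, RH5 and RH15, and 5.58, 4.87 and 4.32 CPM in WT-Nut3 RH1, RH9 and RH14. In KO-Veh RH7, RH10 and RH16 it was 4.08, 4.17 and 3.87 CPM, and in KO-Nut3 RH6, RH8 and RH13 it was 3.66, 3.95 and 3.02 CPM. The genotypes did not overlap, with 4.17 CPM the highest knockout and 4.32 CPM the lowest wild-type value. The log2 fold change over both treatments was -0.46 (SE 0.116, edgeR adjusted *P* = 0.417). The neighbouring *Efna3* was 42.5 CPM on average with vehicle and 42.2 CPM with Nutlin-3 in wild types, and 43.2 and 37.8 CPM in knockouts.

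**Figure D4:**
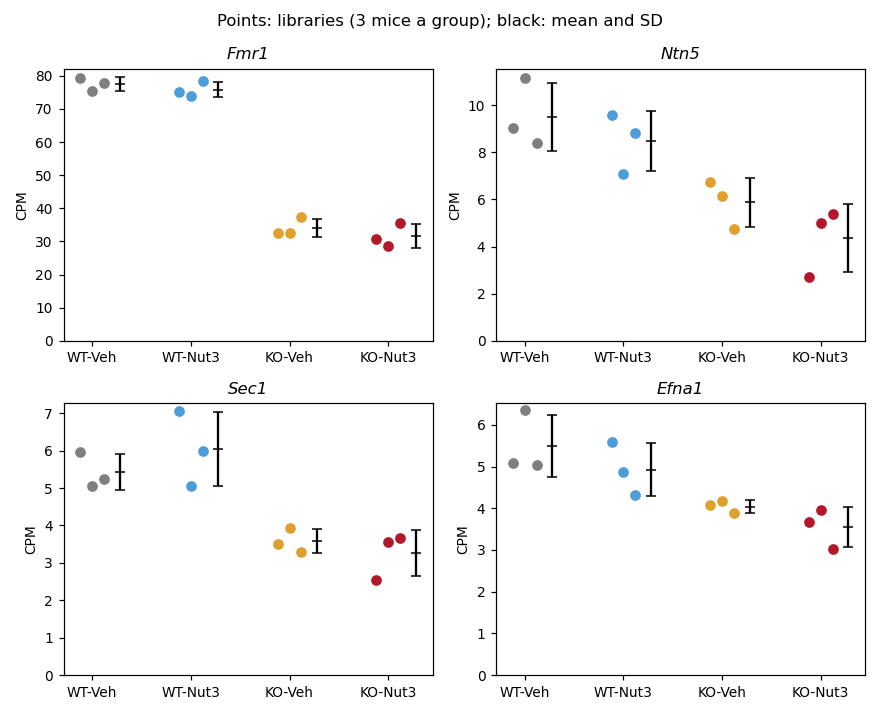
CPM of *Fmr1*, *Ntn5*, *Sec1* and *Efna1* in each library by group, with the mean and SD of the 3 mice in black. In all 4 panels the 6 knockout points lie below the 6 wild-type points, by a wide gap for *Fmr1* (highest knockout 37.3, lowest wild type 74.0 CPM) and a narrow one for *Ntn5* and *Efna1*.

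Next over both treatments were the ligand *Slit2* (49.9 CPM ± 4.94 in knockouts and 61.8 ± 8.90 in wild types, SD, n = 6, log2 fold change -0.31, SE 0.088, edgeR adjusted *P* = 0.417), its receptor *Robo1* (-0.17, SE 0.054, 0.436) and *Ephb6* (-0.21, SE 0.069, 0.442). *Slit2* was highest in WT-Veh RH2 and RH5 (75.7 and 68.1 CPM) and lowest in KO-Nut3 RH6 and KO-Veh RH16 (43.8 and 45.1 CPM), and WT-Veh RH15 (51.4 CPM) and WT-Nut3 RH14 (54.8 CPM) lay within the knockout range of 43.8 to 57.5 CPM. *Robo1* was 57.4 to 63.1 CPM in knockouts and 59.0 to 76.1 CPM in wild types, with WT-Veh RH15 the single overlapping wild type. *Slit2* and *Robo1* thus had the same order of genotype means, and both overlapped between genotypes. The other 2 Robo receptors, *Robo2* and *Robo3*, went the other way, higher in knockouts over both treatments (median log2 fold change of the 3 receptors 0.047).

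In vehicle mice alone, *Ntn5* was followed by *Sema4a* (log2 fold change -0.27, SE 0.072, edgeR adjusted *P* = 0.594), *Slit2* (-0.40, SE 0.110, 0.594), the receptor *Epha10* (0.18, SE 0.058, 0.61), whose kinase domain is inactive, and *Sema3f* (-0.73, SE 0.267, 0.631). WT-Veh RH15 lies in this comparison, and without it *Slit2* had a log2 fold change of -0.54 and an edgeR adjusted *P* of 0.0166. In treated mice alone, *Ntn5* was followed by the netrin receptor *Unc5c* (-0.28, SE 0.087), *Robo1* (-0.19, SE 0.065), *Efna1* (-0.48, SE 0.189) and *Ephb6* (-0.19, SE 0.084), each with an edgeR adjusted *P* of 0.928. Without KO-Nut3 RH6, *Unc5c* was at -0.19 and *Robo1* at -0.14 (edgeR adjusted *P* = 0.999 for both).

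In counts, KO-Veh against WT-Veh had 1 gene of the set higher and 10 lower at an unadjusted *P* under 0.05, 1.47% and 14.7% of the set against 3.08% and 4.12% of all genes. Groups did not overlap for 1 higher and 5 lower, 1.47% and 7.35%, against 5.9% and 6.46% of all genes. KO-Nut3 against WT-Nut3 had none higher and 5 lower (7.35%) at that *P*, against 2.8% and 2.08%, and 1 higher and 6 lower (8.82%) without overlap, against 5.3% and 5.35%. Over both treatments 1 was higher and 10 were lower (14.7%), against 3.8% and 4.36%, and none was higher and 2 were lower (2.94%) without overlap, against 0.177% and 0.359%. The adjusted threshold was passed by 0.0177%, 0.00443% and 0.00443% of all genes in the 3 comparisons in this order. At the unadjusted *P* the share of lower genes in the set was above that of all genes in each of the 3 comparisons, whereas in vehicle mice the share without overlap was near it. No test of the set as a whole was made. The counts moved with single libraries. In vehicle mice the 11 genes in either direction became 6 without WT-Veh RH5 and 7 without KO-Veh RH10. In treated mice the 5 became 12 without WT-Nut3 RH9, 14 without KO-Nut3 RH8, 12 without KO-Nut3 RH13 and 3 without WT-Nut3 RH14. Over both treatments the 11 became 9 without WT-Veh RH2.

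Markers of cell types moved in the same comparisons. Markers of CA pyramidal neurons were lower in knockouts for 9 of 10 genes over both treatments (3 at an unadjusted *P* under 0.05, median log2 fold change -0.15), for 10 of 10 in treated mice (2 at that *P*, median -0.29) and for 7 of 10 in vehicle mice (1 at that *P*, median -0.052). That 1 gene also passed the adjusted threshold in vehicle mice (edgeR adjusted *P* = 0.0478). In treated mice these markers summed to 689 CPM in KO-Nut3 RH6 and to 1064 and 1083 CPM in RH8 and RH13, against 1089 to 1157 CPM in WT-Nut3. Fibroblast markers were lower for 16 of 17 genes in vehicle mice (8 at that *P*, median -0.75) and higher for 17 of 17 in treated mice (16 at that *P*, median 1.32). Ependyma markers were higher in knockouts for 8 of 8 genes over both treatments (6 at that *P*, median 0.62), in vehicle mice (6 at that *P*, median 0.815) and in treated mice (2 at that *P*, median 0.46). Choroid plexus markers were higher for 18 of 18 genes over both treatments (0 at that *P*, median 0.75) and in treated mice (1 at that *P*, median 0.89). In vehicle mice they were higher for 14 of 18 (2 higher and 1 lower at that *P*, median 0.14). In vehicle mice, markers of mural cells were lower in knockouts for 9 of 10 genes (3 at that *P*, median -0.27). Those of endothelium were lower for 9 of 10 (3 at that *P*, median -0.11) and of oligodendrocyte precursors for 5 of 6 (2 at that *P*, median -0.091). Interneuron markers were higher there for 8 of 10 (3 at that *P*, median 0.11). The part of these cell types in the values of the axon guidance genes was not tested.

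In vehicle and treated mice, 41 of the 68 genes had the same direction of the genotype difference (60.3%), 32 of them lower in both (47.1%), against 54.5% and 27.2% of all genes. By role, all 3 Slits and both neuropilins were lower in knockouts in both comparisons, with 8 and 7 of the 9 plexins and 11 and 8 of the 13 membrane-bound semaphorins. In treated mice these directions rest in part on KO-Nut3 RH6, which was below every other library for all 3 Slits, both neuropilins and 4 plexins. KO-Nut3 RH8 and RH13 lay within the range of the WT-Nut3 libraries for *Slit1*, *Slit3*, *Nrp1* and *Nrp2*. For *Slit2*, RH13 did too and RH8 was below it (50.9 CPM against 54.8 to 61.4 CPM). EphA receptors were divided, with 4 and 5 of 9 lower. So were ephrin-A ligands (2 and 3 of 5), ephrin-B ligands (1 and 3 of 3), Robo receptors (1 and 2 of 3) and class 3 semaphorins (5 and 2 of 7). Of the remaining roles, 4 and 3 of 5 EphB receptors, 3 and 2 of 4 netrins and 3 and 4 of 5 netrin receptors were lower. Summed over the set, the WT-Veh libraries held 4893 CPM ± 236 and the WT-Nut3 libraries 4855 ± 121, against 4735 ± 14.6 for KO-Veh and 4545 ± 249 for KO-Nut3 (SD, n = 3), and the lowest library was KO-Nut3 RH6 at 4258. These sums overlap between knockouts and wild types.

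**Figure D5:**
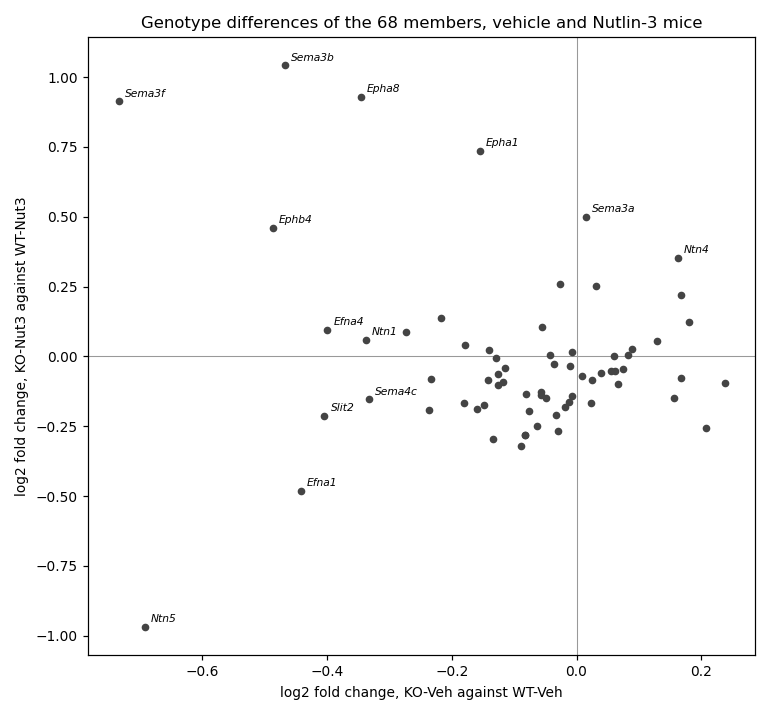
Log2 fold change of the 68 axon guidance genes in KO-Veh against WT-Veh (horizontal) and KO-Nut3 against WT-Nut3 (vertical), 1 point per gene, with no library in common. The lower left quadrant holds 32 genes with *Ntn5* and *Efna1* farthest out, and *Sema3b*, *Sema3f* and *Epha8* lie at the upper left.

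Partners of these ligands and receptors were read from 2 further lists. None of the 26 co-receptors, further ligands and adhesion partners and none of the 40 intracellular effectors passed the threshold by edgeR in any of the 7 comparisons. Over both treatments, 1 partner was higher and 6 were lower in knockouts at an unadjusted *P* under 0.05, or 3.85% and 23.1% of the 26, and 2 effectors were higher and 2 lower, 5% each of the 40. Of all genes 3.8% were higher and 4.36% lower, so the effectors lay near that share. The closest was *Arhgap35*, which encodes a GTPase-activating protein that acts downstream of guidance receptors. It was 238 to 251 CPM in the 6 wild-type libraries and 206 to 218 CPM in the 6 knockout libraries, which did not overlap (log2 fold change -0.22, SE 0.033, edgeR adjusted *P* = 0.065). *Lrrc4c*, the receptor of netrin-G1, was 74.6 to 90.7 CPM and 65.4 to 72.9 CPM (-0.23, SE 0.047, edgeR adjusted *P* = 0.234). *Lingo1*, a co-receptor of the Nogo receptor (-0.23, SE 0.059, 0.417), and *Dpysl5*, of the collapsin response mediator family (0.21, SE 0.058, 0.417), were next.

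In KO-Nut3 against KO-Veh the first partners were *Celsr3* (log2 fold change -0.16, SE 0.062, edgeR adjusted *P* = 0.557) and *Lingo1* (-0.21, SE 0.085, 0.622), and the first effectors were the collapsin response mediators *Dpysl4* (-0.22, SE 0.088, 0.6) and *Crmp1* (-0.18, SE 0.083, 0.682). Markers of CA pyramidal neurons were lower for 9 of 10 genes in this comparison (median -0.21) and those of dentate granule neurons for 8 of 10 (median -0.12). In both lists 0 were at an unadjusted *P* under 0.05. The part of these neurons in the values of the partners, the effectors and *Unc5d* was not tested. Pooling genotypes, the adhesion molecule *L1cam*, a partner of neuropilin-1, came first among partners (-0.16, SE 0.050, edgeR adjusted *P* = 0.375), with 137 CPM ± 5.98 in treated and 153 ± 12.1 in vehicle mice (SD, n = 6). In that pooled comparison 1 partner was higher and 8 were lower with Nutlin-3 at an unadjusted *P* under 0.05, or 3.85% and 30.8% of the 26. Of all genes 5.02% were higher and 2.28% lower. A lower share of partners was thus not particular to the genotype comparisons.

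In the other comparisons between single groups the first partners were as follows, with effectors for the genotype comparisons alone. In the interaction no partner and no effector had an unadjusted *P* under 0.05, against 2.9% positive and 1.27% negative of all genes. KO-Veh against WT-Veh was led by *Lrrc4c* (log2 fold change -0.26, SE 0.065, edgeR adjusted *P* = 0.552), the netrin-binding adhesion molecule *Dscam* (-0.20, SE 0.062, 0.608), *Arhgap35* (-0.20, SE 0.052, 0.594) and *Dpysl5* (0.24, SE 0.087, 0.631). KO-Nut3 against WT-Nut3 was led by *Lingo1* (-0.31, SE 0.075), *Lrrc4c* (-0.21, SE 0.070), *Arhgap35* (-0.25, SE 0.054) and the guanine nucleotide exchange factor *Vav3* (0.31, SE 0.116), each with an edgeR adjusted *P* of 0.928. *Arhgap35* and *Lrrc4c* were thus among the first in both genotype comparisons, which share no library, and did not overlap between groups in either. WT-Nut3 against WT-Veh was led by the plexin partner *Met* (-0.64, SE 0.196) and *L1cam* (-0.18, SE 0.077), each with an edgeR adjusted *P* of 0.998.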

How the data were processed

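Hippocampal poly(A) RNA was sequenced in 12 mice. Per the labels, the authors aligned reads with STAR to mm10, and the deposited values are raw read counts per gene, not normalized. The strand-blind count column was used, and rows that name no gene were left out. The STAR version is not given in the sources used here. The sources differ on single-read or paired-end sequencing.

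Genes with more than 20 counts in total were tested with edgeR 4.0.16 (R 4.3.3, TMM, quasi-likelihood test, two-sided, Benjamini-Hochberg over all genes, threshold 0.05), checked on simulated data. The SE is the log2 fold change over the root of F. RPKM used TMM-scaled counts and union exon length (GENCODE, GRCm38). Alternatives were DESeq2 1.42.0, its size factors, other count filters, an animal-number term, all libraries in one fit and each library left out. P-values measure the spread between 3 mice per group.

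Named with tests were genes past the threshold and the 5 with the smallest P in each comparison. Of the partner and effector lists at most the first 2 were named, and not in every comparison. Members and lists were chosen with earlier results of these data known. Upstream sequences are from RefSeq (GRCm38.p6), which matched 58 of 68 genes.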

Additional observations from a re-analysis of the deposited data

Results flagged for a closer look

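The levels of all 68 axon guidance genes were looked at within 4 groups of 6 libraries (wild types, knockouts, vehicle and Nutlin-3), in which each library appears under its genotype and again under its treatment. Of these 272 groups, 32 (11.8%), in 25 genes, had a single library far from the other 5. The cutoff used gives about 1 in 20 for 6 values drawn from a single normal population. These groups pool treatments or genotypes and share libraries, so their share cannot be set against that figure.

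KO-Nut3 RH6 was that library in 20 of the 32, in 15 genes. It was the low library for the repellent *Slit3* (49.3 CPM against 90.1 to 96.6 CPM in the other knockouts), *Slit1* (245 against 328 to 363 CPM), the plexin *Plxna1* (149 against 193 to 203 CPM), *Unc5a* (129 against 195 to 234 CPM), *Epha4* (324 against 385 to 415 CPM) and *Nrp1* (65.0 against 83.0 to 93.1 CPM). Within the Nutlin-3 group it was again low for *Slit3*, *Plxna1*, *Unc5a* and *Epha4*, and also for *Efna3* (31.6 against 40.7 to 44.5 CPM), *Epha6* (57.2 against 74.6 to 82.5 CPM) and *Plxnc1* (43.5 against 56.9 to 64.0 CPM).

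The same library was the high one among knockouts for *Epha8* (16.9 CPM against 1.87 to 4.65 CPM), *Ephb1* (59.3 against 29.9 to 34.3 CPM), *Sema3a* (7.21 against 3.19 to 4.22 CPM) and *Sema6a* (38.3 against 19.7 to 25.8 CPM). Within the Nutlin-3 group it was high for *Epha8*, *Epha10* (82.5 against 59.7 to 67.9 CPM) and *Efna5* (9.82 against 6.66 to 7.74 CPM).

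The other 12 were spread over 8 libraries. WT-Veh RH5 was high for *Sema3b* (5.88 CPM) and *Ephb4* (10.3 CPM) among vehicle libraries and for *Efnb2* (58.8 CPM) among wild types, and its fibroblast marker sum was the highest of the vehicle libraries (303 CPM), whose part in these values was not tested. WT-Nut3 RH9 was high for *Sema3b* among wild types (15.9 CPM), and WT-Veh RH2 for *Epha4* among vehicle libraries (494 CPM). WT-Nut3 RH1 was high for *Unc5b* among wild types (51.0 CPM) and for *Ntn3* in the Nutlin-3 group (13.6 CPM), and WT-Nut3 RH14 for *Robo3* in that group (45.1 CPM). KO-Veh RH16 was high for *Epha2* (2.62 CPM) and low for *Sema4b* (18.5 CPM) among vehicle libraries. WT-Veh RH15 was low for *Sema3c* in the same group (19.3 CPM), and KO-Nut3 RH13 for *Dcc* in the Nutlin-3 group (42.1 CPM).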

How the results depend on the processing

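In KO-Nut3 against KO-Veh, 1 axon guidance gene passed the threshold, against 3 by DESeq2, 3 with all genes of at least 1 count, 0 with all 12 libraries in one fit and 0 to 3 with single libraries left out (0 without any one of KO-Veh RH7, RH10 or RH16, 2 without KO-Nut3 RH6, 3 without KO-Nut3 RH8). In KO-Veh against WT-Veh the count was 0, and 0 to 1 with single libraries left out (1, *Slit2*, without WT-Veh RH15). With all genes of at least 1 count it was 3 there, 2 in WT-Nut3 against WT-Veh, 4 in the interaction, 3 over both treatments and 6 over both genotypes, each against 0. The genes were *Ntn5*, *Slit2* and *Ephb6* there and over both treatments, and *Plxnb3* and *Sema3b* in WT-Nut3 against WT-Veh. In the interaction they were *Epha8*, *Ephb4*, *Sema3b* and *Sema3f*. Over both genotypes they were *Unc5d*, *Unc5a*, *Ephb1*, *Sema3b*, *Sema3f* and *Plxnb2*. Of all genes, the filter of at least 1 count called 544 of 35930 in KO-Nut3 against KO-Veh, against 45 of 22592, and DESeq2 called 245. The same filter called 272 genes in KO-Veh against WT-Veh, against 4, and 249 in WT-Nut3 against WT-Veh, against 0. It called 291 in the interaction, against 0, 239 over both treatments, against 1, and 539 over both genotypes, against 0. The causes were not tested. Of 513 alternative values of 35 fold changes, 489 kept direction and side of the threshold, 4 lost the call, 20 gained one and 0 reversed, while DESeq2 gave no adjusted P for *Ntn5* and *Efna1* over both treatments. The median level was 7.08 RPKM with the longest transcript as length, against 5.28. No paired analysis was possible because the labels number animals without sharing numbers between groups. With 3 mice per group and choroid plexus RNA unevenly spread, treatment and tissue content cannot be told apart in the knockouts. *Efna4* and *Epha1* had under 10 reads in some libraries.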
